A study of Mus musculus with 4 samples.

Results

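G2/M cells, the proliferating cells of the mouse small-intestinal epithelium that held at least as many transcripts of 5 mitotic genes as of 5 replication genes, are described here in 4 droplet single-cell RNA libraries. They were chosen by values measured in the same cells. A cell was taken as epithelial where it held at least 1 UMI (a molecular identifier, counted as 1 captured transcript) of Epcam and none of Ptprc. Goblet cells, with Muc2 at 0.2% or more of their UMIs, were left out, and a cell counted as proliferating with at least 5 UMIs of Mki67, Top2a, Pclaf and Rrm2 together. Among those, G2/M cells were the ones whose UMIs of Ccnb1, Ccnb2, Cdc20, Ube2c and Birc5 summed to at least the sum of Mcm3, Mcm5, Mcm6, Hells and Rrm2. The proliferating cells with a lower sum are called S-phase cells, and the non-goblet epithelial cells that did not count as proliferating, most of which carried enterocyte transcripts, are called other epithelial cells. The rule found 1349 G2/M cells among 1840 proliferating cells, 22242 non-goblet epithelial cells, 25788 cells past the quality filter and 44277 barcodes in all.

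The labels give 2 samples from mice on a diet with IPA and 2 from control mice on the diet without it. All were male C57BL/6J mice that received high-fat diet and l-NAME for 7 weeks, starting at 8 weeks of age, and were dissected at 15 weeks. The IPA diet held 562.5 mg of IPA per kg. Each sample pooled the small intestine, jejunum and ileum without Peyer's patches, of 2 mice, and EDTA with DTT served to detach its epithelium before live cells were sorted. The barcodes carry only a library number from 1 to 4, and no label ties a number to a diet. The diets were therefore not compared, and each value is given for every library, with no test and no p-value.

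In the crypts of the small intestine, stem cells at the base divide and their daughters, the transit amplifying cells, divide again before they leave the cycle and move up the villus as enterocytes or secretory cells. Cells in S phase copy their DNA with a helicase loaded during G1. In G2 the cyclin-dependent kinase Cdk1 is activated by cyclins A and B, Plk1 and the Aurora kinases drive entry into mitosis, and kinetochores and motors attach the chromosomes to the spindle. The anaphase-promoting complex, started by Cdc20 and completed by Fzr1, then has cyclin B and securin destroyed, which lets the sister chromatids part. Many genes that act late in the cycle share the promoter element CHR and CCAAT boxes, bound by the DREAM and MuvB complexes and by NF-Y, while genes of G1 and S often carry sites for E2F factors.

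Since all 5 markers given for these cells are rule genes, 6 mitotic genes outside the rule were read: Cenpa, Cenpf, Plk1, Aurka, Tpx2 and Hmmr. All 6 are also among the 15 genes furthest above S-phase cells in these same data (below). Their gap to S-phase cells is therefore no independent support for the label. At least 5 UMIs of the 6 were held by 1249 of 1349 G2/M cells (92.6%, exact Clopper-Pearson 95% interval 91.1 to 93.9), by 169 of 491 S-phase cells (34.4%) and by 174 of 20402 other epithelial cells (0.853%). By library the share of G2/M cells was 94.5%, 89.8%, 95% and 94.1%. Only 99 of the 157 G2/M cells with 5 or 6 proliferation UMIs passed (63.1%). Most members thus carried these mitotic transcripts, but the rule cannot tell G2 from mitosis or from late S phase, or S phase from late G1. It also does not tell dividing stem cells from transit amplifying cells, and Lgr5, the receptor that marks crypt base stem cells, was found in 25.2%, 12.1%, 25.1% and 13.6% of G2/M cells in libraries 1 to 4. Lgr5 was found in 24.7%, 17.0%, 26.7% and 14.1% of S-phase cells and in 1.29%, 1.79%, 2.81% and 0.744% of other epithelial cells. In cells with Ptprc and no Epcam, which should lack it, 0 of 224 cells in library 1 and 2 of 597 in library 3 had an Lgr5 UMI, at median depths of 3475 and 3509 UMIs.

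G2/M cells held a median of 45134.5, 35781, 42860 and 37521 UMIs in libraries 1 to 4, against 36039, 28210, 38118 and 28226 in S-phase cells. Over all libraries the median was 39351 UMIs and 5972 genes in G2/M cells, 33356 UMIs and 5684 genes in S-phase cells, and 27103.5 UMIs and 4310 genes in other epithelial cells. The median mitochondrial share was 7.654% in G2/M cells, 7.326% in S-phase cells and 11.21% in other epithelial cells. All 10 G2/M cells under 2000 UMIs lay in library 2. Of the barcodes past the filter, 75 occurred in more than 1 library, and no G2/M cell had such a barcode. Levels below are CPM, the UMIs of a gene per 1000000 UMIs over the summed cells of a class in a library, and intervals cover counting error only.

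The members spread along both sums of the rule. Their mitotic sum had a median of 53 UMIs (quartiles 28 and 95), their replication sum 6 UMIs (2 and 12) and their proliferation sum 34 UMIs (12 and 56). In 99 members the replication sum was 0, and in 24 both sums were equal. Just inside the limit of the rule, 157 members with 5 or 6 proliferation UMIs had Cdk1 at 20.4 CPM, Cenpf at 26.2 CPM and Plk1 at 14.7 CPM. Just outside, 248 cells with 3 or 4 such UMIs and a mitotic sum of at least the replication sum had Cdk1 at 10.3 CPM, Cenpf at 15.1 CPM and Plk1 at 8.14 CPM. At the border with S phase, the 116 members with 50 to 60% of their rule UMIs from the mitotic genes had Cenpf at 63.0 CPM and Ung at 34.7 CPM, and the 83 S-phase cells with 40 to 50% had Cenpf at 47.2 CPM and Ung at 41.1 CPM. No gap was seen at either border.

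**Figure D1:**
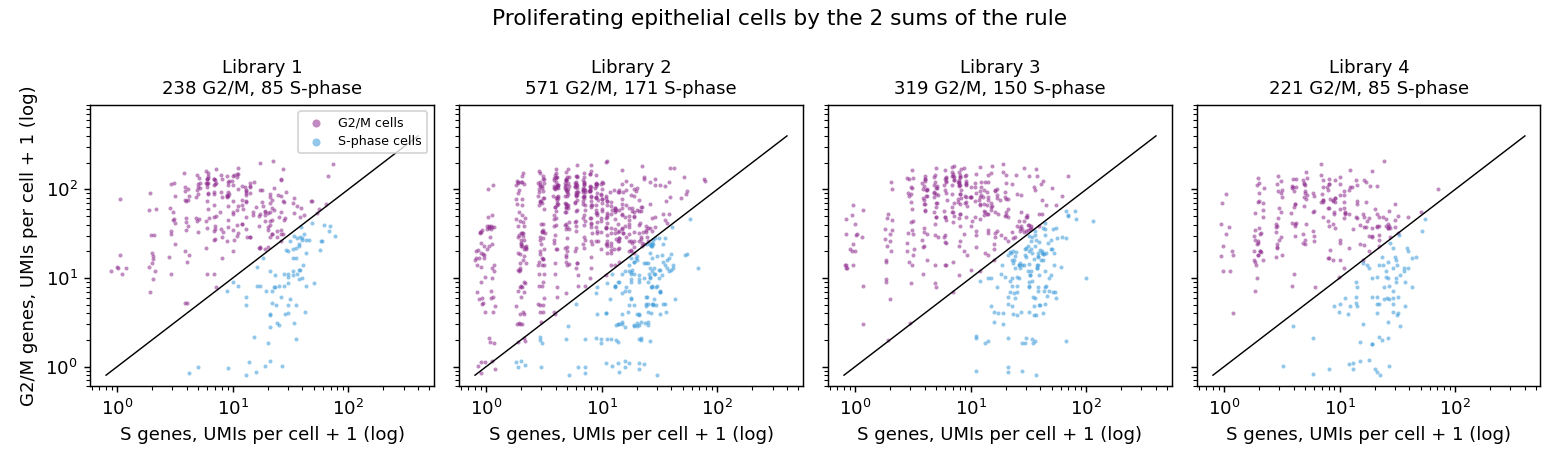
Each point is a proliferating cell, placed by its UMIs of the 5 S genes (x axis, log) and of the 5 G2/M genes (y axis, log), 1 added to each and points jittered, in 4 panels for libraries 1 to 4, with G2/M cells in purple, S-phase cells in blue and equal sums on the black line. The 1349 G2/M cells lie on and above the line in every library and run into the 491 S-phase cells without a gap.

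G2/M cells made up 8.558% of non-goblet epithelial cells in library 2 (exact 95% interval 7.898 to 9.255) and 7.516% in library 3 (6.741 to 8.351). They made up 4.43% in library 1 (3.895 to 5.014) and 3.712% in library 4 (3.247 to 4.224). The intervals of libraries 2 and 3 overlapped each other, those of libraries 1 and 4 overlapped each other, and the pairs did not overlap. S-phase cells made up 1.582%, 2.563%, 3.534% and 1.428% in libraries 1 to 4. The number of G2/M cells per S-phase cell was 2.8, 3.339, 2.127 and 2.6, and the share of proliferating cells that were G2/M was 73.68%, 76.95%, 68.02% and 72.22%. The intervals of libraries 2 and 3 for that share, 73.75 to 79.94% and 63.59 to 72.22%, did not overlap. The ratio and that share rest on raw sums of genes with unlike levels. They do not measure how many cells were in each phase. With each cell thinned to 10000 UMIs the shares of G2/M cells in non-goblet epithelium were 3.932%, 6.525%, 6.607% and 2.64%, so that library 3 stood marginally above library 2. The thinning left out 39 G2/M cells, 37 of them in library 2, and 3223 non-goblet epithelial cells.

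Transcripts of the spindle, the kinetochore and the mitotic kinases set G2/M cells apart from S-phase cells, and transcripts of replication were lower in them. Since the rule is this same contrast, the differences describe the cells and are no test of them. Of 5652 genes outside the rule with a mean of at least 20 CPM, 44 (0.778%) were at least 2-fold higher in G2/M than in S-phase cells in all 4 libraries, on the scale log2(CPM + 1), and 40 (0.708%) were at least 2-fold lower. The median log2 ratio over all these genes lay between -0.01 and 0.11 in the 4 libraries. How many of all genes stood merely above or below S-phase cells in all 4 libraries was not counted. Such counts for lists are therefore given without that share, and cannot be set against all genes. Of the 44 higher genes, 36 belonged to 7 lists of mitotic genes, which together had 131 measured genes of 182 listed. Just 1 listed mitotic gene, Mybl2, was past the fold in the lower direction. Of the 40 lower genes, 29 belonged to the lists of DNA replication and nucleotide synthesis. Genes past the fold were picked for that difference, so statements below that their libraries did not overlap between the classes add little to it.

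Among the rule genes, whose values follow from the choice of cells, Ube2c, the E2 enzyme of the anaphase-promoting complex, was at 613, 599.5, 607.5 and 579.9 CPM in G2/M cells, against 85.3, 79.8, 95.3 and 73.1 CPM in S-phase cells. Cdc20, the activator of that complex, was at 161, 175, 159 and 179 CPM in G2/M cells, against 23.2, 15.7, 24.1 and 18.45 CPM in S-phase cells. Ccnb1, cyclin B1, was at 110.4, 113, 118 and 112.5 CPM in G2/M cells, against 16.8, 12.8, 16.45 and 12.8 CPM in S-phase cells. The 4 libraries lay close together within each class for these genes. Ccnb2 was at 160.0 to 169.6 CPM in G2/M cells, against 25.5 to 46.1 CPM in S-phase cells. Birc5, the survivin subunit of the chromosomal passenger complex, was at 371 to 415 CPM in G2/M cells, against 93.3 to 121 CPM in S-phase cells. The 4 proliferation genes of the rule were split, with a pair higher and a pair lower in all 4 libraries. Top2a, which untangles DNA, was at 338, 297, 331.5 and 267 CPM in G2/M cells, against 171, 195, 216 and 163 CPM in S-phase cells. Mki67, which coats mitotic chromosomes, was at 271.5, 265, 270.1 and 238 CPM in G2/M cells, against 155, 140, 145 and 114 CPM in S-phase cells. Pclaf, a partner of Pcna, was at 259, 255, 235 and 241 CPM in G2/M cells, against 313.5, 338, 344 and 309 CPM in S-phase cells. Rrm2, a subunit of ribonucleotide reductase that also counts in the replication sum, was at 55.99, 47.4, 45.6 and 53.9 CPM in G2/M cells, against 107.4, 107.9, 109.6 and 106.1 CPM in S-phase cells.

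Of 15 measured genes of mitotic entry, 7 were past the 2-fold in the higher direction, with a list median log2 ratio of 0.76, 0.53, 0.44 and 0.48 in libraries 1 to 4. Plk1, the Polo kinase, was at 82.4, 78.4, 86.3 and 80.8 CPM in G2/M cells, against 15.7, 16.4, 17.2 and 11.35 CPM in S-phase cells. Aurka, the spindle pole Aurora kinase, was at 70.2, 69.3, 67.9 and 68.8 CPM in G2/M cells, against 20.1, 15.2, 16.2 and 14.2 CPM in S-phase cells. Cdk1 itself was at 197, 189, 189.9 and 185 CPM in G2/M cells, against 85.85, 90.8, 90.9 and 82.7 CPM in S-phase cells, so the kinase gene differed less than Plk1. The libraries of the classes did not overlap for any of the 3 genes. Ccna2 (cyclin A2), Cks2 (a Cdk1 subunit), Melk (a kinase) and Bora (the Aurora A cofactor that activates Plk1) were also higher, with median log2 ratios of 1.44, 1.30, 1.45 and 1.16. Mybl2, the Myb factor that joins MuvB in S phase, was at 11.1, 9.57, 10.9 and 9.86 CPM in G2/M cells, against 31.3, 31.0, 33.2 and 33.0 CPM in S-phase cells. Wee1, the kinase that holds Cdk1 inactive, was at 44.4, 31.6, 40.4 and 29.04 CPM in G2/M cells, against 41.4, 35.7, 45.1 and 36.2 CPM in S-phase cells, and the classes overlapped. Cdc25b, a phosphatase that removes that brake, fell short of the level filter and was at 27.8, 23.9, 33.75 and 24.3 CPM in G2/M cells, against 3.92, 4.15, 4.55 and 5.32 CPM in S-phase cells. Mybl2, Wee1 and Cdc25b were picked out after their values were seen.

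At the kinetochore, 4 of 18 measured genes were past the fold and none was past it in the lower direction. Cenpa, the histone H3 variant that marks the centromere, was at 241, 231, 237 and 230.4 CPM in G2/M cells, against 44.7, 31.9, 36.3 and 30.5 CPM in S-phase cells, and had the largest median log2 ratio of the genes outside the rule that were past the fold (2.75). Cenpf, a kinetochore protein made in G2, was at 143, 139.9, 158 and 139.6 CPM in G2/M cells, against 18.2, 20.9, 26.3 and 20.6 CPM in S-phase cells. Cenpe, the kinetochore kinesin, was at 83.7, 86.1, 100.4 and 84.4 CPM in G2/M cells, against 22.65, 25.6, 29.4 and 22.35 CPM in S-phase cells. Every library of G2/M cells stood above every library of S-phase cells for these 3 genes. The list median log2 ratio was 0.46, 0.50, 0.41 and 0.50, since most kinetochore genes were past no fold. Of 9 measured genes of the passenger complex and the spindle checkpoint, 4 were past the fold, among them Aurkb, the kinase of that complex, and its subunit Cdca8, with median log2 ratios of 1.37 and 1.42. The checkpoint genes Bub1b and Knl1 (a scaffold) had 1.37 and 1.24, and the list medians were 0.98, 0.83, 0.90 and 1.02.

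Of the 31 measured spindle genes and kinesins 14 were past the fold in the higher direction and none in the lower, and the list's median log2 ratio was 1.03, 1.04, 0.98 and 1.05 in libraries 1 to 4. Hmmr, a spindle assembly factor, was at 74.1, 75.1, 85.3 and 74.3 CPM in G2/M cells, against 12.3, 9.75, 15.0 and 7.81 CPM in S-phase cells. Nusap1, which bundles spindle microtubules, was at 131, 113, 135 and 109 CPM in G2/M cells, against 19.0, 21.3, 28.8 and 14.9 CPM in S-phase cells. Tubb4b, a beta tubulin, was at 1062, 1109, 983 and 1229 CPM in G2/M cells, against 442, 408, 407 and 428 CPM in S-phase cells. For all 3 genes the lowest library of G2/M cells exceeded the highest library of S-phase cells. Tubb4b was not confined to dividing cells, with 457, 499, 412 and 560.2 CPM in other epithelial cells. Tpx2, the activator of Aurora A, and the kinesin Kif22 had median log2 ratios of 2.06 and 2.11, and Knstrn and Ckap2l had 1.93 and 1.80. In cytokinesis, 3 of 8 measured genes were past the fold: Racgap1, a subunit of centralspindlin (1.66), Anln, the anillin of the contractile ring (1.498), and Ect2, the exchange factor for RhoA (1.35).

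Of 14 measured genes of the anaphase-promoting complex and its regulators, the fold was passed by Ube2s, the chain-elongating E2 enzyme, and by Fzr1, the activator of late mitosis and G1. Ube2s was at 441, 447, 428 and 411 CPM in G2/M cells, against 213, 209, 209 and 182 CPM in S-phase cells. Fzr1 was at 40.9, 41.9, 43.9 and 42.7 CPM in G2/M cells, against 19.0, 16.4, 17.0 and 15.6 CPM in S-phase cells. The list median log2 ratio was only 0.11, 0.08, 0.04 and 0.13, and the median over all genes was 0.05, 0.09, -0.01 and 0.11. Of 37 measured genes of condensins and chromatin, 2 were past the fold: H2afx, the H2A variant phosphorylated at DNA breaks, at 237, 231, 258 and 236 CPM in G2/M cells, against 91.4, 92.8, 99.6 and 82.3 CPM in S-phase cells, and Cdca3, which promotes Wee1 turnover, with a median log2 ratio of 1.90. Hmgb2, a DNA-bending protein, was at 1666, 1498, 1571 and 1446 CPM in G2/M cells, against 825, 759.8, 806 and 629 CPM in S-phase cells, which was just under 2-fold in part of the libraries. All 8 measured core histone genes were above S-phase cells in all 4 libraries and none was past the fold, with list medians of 0.67, 0.50, 0.63 and 0.86. Histone transcripts of this kind mostly lack a poly(A) tail, so such libraries capture them poorly. Whether part of the G2/M cells was still in S phase was not tested.

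**Figure D2:**
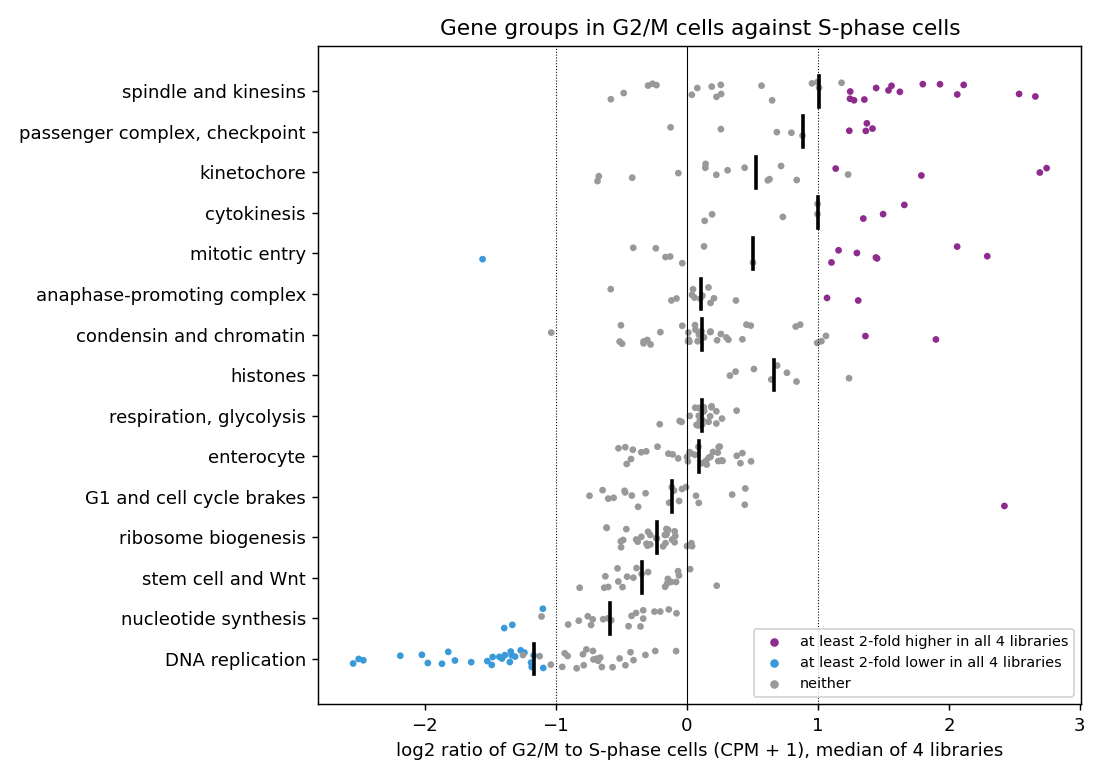
Each point is a measured gene of a list, placed by its median log2 ratio of G2/M to S-phase cells over 4 libraries (x axis, CPM + 1), with the black tick at the list's median and dotted lines at a 2-fold difference; rows are gene lists. Purple points, at least 2-fold higher in all 4 libraries, fill the spindle row (14 of 31 genes), and blue points, at least 2-fold lower, fill the replication row (26 of 51 genes).

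Genes of DNA replication were the mirror image: 26 of 51 measured genes were past the fold in the lower direction, none in the higher, and 49 were below S-phase cells in all 4 libraries. The list median log2 ratio was -1.03, -1.23, -1.22 and -1.13. Cdc6, which loads the helicase with Cdt1, was at 6.21, 4.63, 3.92 and 5.81 CPM in G2/M cells, against 36.35, 30.9, 36.0 and 40.1 CPM in S-phase cells, the most negative median log2 ratio among the called genes (-2.55). Ung, which removes uracil from DNA, was at 11.2, 9.13, 11.1 and 10.4 CPM in G2/M cells, against 58.4, 53.1, 71.8 and 68.5 CPM in S-phase cells. Ccne1, cyclin E1, was at 7.61, 8.56, 8.47 and 8.11 CPM in G2/M cells, against 49.2, 42.2, 48.8 and 54.6 CPM in S-phase cells. No library of G2/M cells reached the lowest library of S-phase cells for these 3 genes. Pcna, the sliding clamp, was at 125.5, 111, 109 and 113.5 CPM in G2/M cells, against 337, 304, 351 and 286 CPM in S-phase cells. Cdt1, Dtl (which has Cdt1 destroyed), Mcm4 and Mcm2 (helicase subunits), Chaf1b (histone deposition) and Uhrf1 (maintenance of DNA methylation) had median log2 ratios of -2.19, -2.02, -1.98, -1.87, -1.82 and -1.77. Gmnn, geminin, which blocks new helicase loading until mitosis ends, fell short of the fold at 98.6, 98.3, 96.95 and 93.7 CPM in G2/M cells, against 140.1, 153, 163 and 151.5 CPM in S-phase cells. Dbf4, the partner of the kinase Cdc7 that fires origins, stood the other way at 62.55, 51.8, 58.7 and 55.8 CPM in G2/M cells, against 30.2, 29.4, 31.1 and 29.1 CPM in S-phase cells, and was picked out after its values were seen. Nucleotide synthesis genes were past the fold in 3 of 22 cases, Dut, Paics and Ppat, and all 22 were below S-phase cells in every library.

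The 15 called genes furthest below S-phase cells were all still higher in G2/M cells than in other epithelial cells in all 4 libraries. Cdc6 in other epithelial cells was at 1.011, 0.476, 1.23 and 0.743 CPM, and Ung at 1.38, 2.04, 2.71 and 1.26 CPM. Of the 15 called genes furthest above S-phase cells, 14 were also higher than in other epithelial cells in all 4 libraries. The exception was Cdkn2b, which encodes p15, an inhibitor of Cdk4 and Cdk6. It was at 42.4, 75.8, 44.1 and 68.7 CPM in G2/M cells, against 10.35, 20.4, 11.5 and 15.96 CPM in S-phase cells and 104, 151, 102 and 121 CPM in other epithelial cells. Cdkn2b thus stood between S-phase and other epithelial cells in every library. The list of G1 and the cell cycle brakes does not hold Cdkn2b, and Cdkn3 was the single call among its 21 measured genes. Cdkn3, a phosphatase that acts on cyclin-dependent kinases, was at 75.4, 89.3, 79.2 and 92.4 CPM in G2/M cells, against 16.5, 9.20, 15.7 and 14.55 CPM in S-phase cells and 1.55, 3.69, 2.55 and 2.14 CPM in other epithelial cells. Ccnd1 and Ccnd2, the D cyclins of G1, had median log2 ratios of -0.56 and -0.10 to S-phase cells.

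Promoter sequences were read for the called genes, since CHR and CCAAT elements are known from this gene class. RefSeq promoters of build GRCm38.p6, 250 bases before to 50 bases after the start, were found for 38 of the 44 higher and 36 of the 40 lower genes. Both strands were searched for the CHR letters TTTGAA, for CCAAT and for the E2F letters TTTCCCGC, TTTCGCGC, TTTGCCGC and TTTGGCGC, with overlapping matches counted. TTTGAA was in 25 of 38 promoters of higher genes (65.8%), in 3 of 36 of lower genes (8.33%), in 564 of 4569 of all measured genes (12.3%) and in 18.1% of all 27025 promoters. An E2F word was in 1 of 38 promoters of higher genes (2.63%), in 11 of 36 of lower genes (30.6%), in 5.27% of measured genes and in 2.32% of all. CCAAT was in 73.7% of higher, 63.9% of lower, 39.7% of measured and 37.9% of all promoters. TTTGAA and CCAAT stood in the same promoter for 21 of 38 higher genes (55.3%) and for 2 of 36 lower genes (5.56%). Of the 5 mitotic rule genes 3 held TTTGAA, and Ccnb1 and Birc5 did not. Of the 15 called genes furthest above S-phase cells 14 had a promoter and 11 held TTTGAA, and of the 15 furthest below 13 had a promoter and 5 held an E2F word. A match describes letters and is not evidence of a bound site. Windows of 30 bases are on the strand of the gene, with the match in capitals. They show the CHR letters (or TTCAAA, the same on the other strand) where these lay close to the start, a selection by the match itself. The genes are mitotic rule genes and genes furthest above S-phase cells, and Cdca3, which also held the letters, is not shown:
Ube2c (chr2:164769888-164769917, plus strand): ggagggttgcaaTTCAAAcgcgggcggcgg
Cdc20 (chr4:118437344-118437373, minus strand): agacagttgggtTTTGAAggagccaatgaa
Ccnb2 (chr9:70421533-70421562, minus strand): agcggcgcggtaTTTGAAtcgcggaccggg
Cenpa (chr5:30666890-30666919, plus strand): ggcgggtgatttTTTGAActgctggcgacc
Cenpf (chr1:189688067-189688096, minus strand): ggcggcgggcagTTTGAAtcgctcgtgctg
Hmmr (chr11:40733412-40733441, minus strand): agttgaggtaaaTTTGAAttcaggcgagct
Plk1 (chr7:122159453-122159482, plus strand): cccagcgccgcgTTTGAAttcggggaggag
Kif22 (chr7:127042420-127042449, minus strand): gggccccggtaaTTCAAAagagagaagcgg
Aurka (chr2:172370521-172370550, minus strand): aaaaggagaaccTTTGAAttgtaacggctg
Ckap2l (chr2:129297225-129297254, minus strand): ttattggcgaatTTCAAAgtcgcggaagcc
Racgap1 (chr15:99651634-99651663, minus strand): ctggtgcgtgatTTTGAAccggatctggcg

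The E2F words in promoters of genes furthest below S-phase cells are shown in the same way (GCGGGAAA is TTTCCCGC on the other strand). Cdt1, Dtl, Msh6 (mismatch repair) and Zfp367 (a zinc finger protein) carried them within the same window length:
Cdt1 (chr8:122568035-122568064, plus strand): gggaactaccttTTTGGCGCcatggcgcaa
Dtl (chr1:191575534-191575563, minus strand): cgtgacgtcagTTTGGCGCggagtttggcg
Zfp367 (chr13:64153186-64153215, minus strand): cgaaatgtaacGCGGGAAAagccgaagcgg
Msh6 (chr17:87975054-87975083, plus strand): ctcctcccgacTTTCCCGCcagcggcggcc

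The 150 bases before the start show how such letters sit in longer sequence for Cdk1 and Kif11 (the kinesin that pushes spindle poles apart), both past the fold, and for Cdc20 and Mcm6, rule genes of opposite sides. Capitals mark the CHR, CCAAT and E2F letters on either strand, so that CCAAT also appears as ATTGG, and E2F words overlap once in Mcm6 (TTTGGCGCGAAA). Cdk1 held 2 CHR, 2 CCAAT and 1 E2F match, Kif11 held 1 CHR and 1 CCAAT, Cdc20 held 1 CHR and 2 CCAAT, and Mcm6 held 0 CHR, 2 CCAAT and 3 E2F matches:
Cdk1 (chr10:69352913-69353062, minus strand): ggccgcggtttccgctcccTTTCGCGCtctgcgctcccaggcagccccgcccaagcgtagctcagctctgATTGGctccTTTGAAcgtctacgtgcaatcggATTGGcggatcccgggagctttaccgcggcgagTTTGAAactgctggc
Kif11 (chr19:37376232-37376381, plus strand): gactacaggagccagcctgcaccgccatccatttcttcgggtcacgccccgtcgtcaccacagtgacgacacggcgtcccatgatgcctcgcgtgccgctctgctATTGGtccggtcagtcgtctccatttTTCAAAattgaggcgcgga
Cdc20 (chr4:118437344-118437493, minus strand): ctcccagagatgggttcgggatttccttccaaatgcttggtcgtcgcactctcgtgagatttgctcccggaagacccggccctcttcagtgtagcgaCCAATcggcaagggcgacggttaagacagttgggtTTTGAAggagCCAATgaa
Mcm6 (chr1:128359706-128359855, minus strand): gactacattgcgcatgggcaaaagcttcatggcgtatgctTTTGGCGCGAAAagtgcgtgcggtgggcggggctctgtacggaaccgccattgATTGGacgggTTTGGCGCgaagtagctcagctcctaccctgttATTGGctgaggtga

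All 1840 proliferating cells were placed in 5 bins by the share of their rule UMIs that came from the mitotic genes. The bins were 0 to 25%, 25 to 50%, 50 to 75%, 75 to 90% and 90 to 100%, with 251, 240, 296, 356 and 697 cells. The last 3 bins are the G2/M cells. The bins rest on rule genes and are not points in time, so the trends are descriptions. The median CPM of the 4 libraries is given from the lowest bin to the highest. Ccne1 was at 46.8, 51.1, 24.4, 6.20 and 1.29 CPM and Ung at 80.5, 49.9, 26.9, 9.07 and 3.58 CPM. Both were thus lowest in the last bin. Pcna was at 330, 321, 235, 123.5 and 51.6 CPM. Hist1h1b, a linker histone, was highest at 50 to 75%, a bin of G2/M cells, with 53.4, 181, 234, 179.5 and 122 CPM.

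Within the G2/M cells the mitotic genes were not level. Ccna2 was at 26.6, 69.7, 100.6, 136 and 155.5 CPM over the same bins, and Cdk1 at 68.9, 104, 141, 168 and 224 CPM. Cenpf was at 6.76, 33.7, 75.03, 133 and 178 CPM, and Cenpa at 12.9, 52.1, 108, 202 and 306 CPM. Each of the 4 was highest in the last bin. Plk1 was at 7.47, 22.9, 49.7, 75.2 and 98.5 CPM, Cdkn3 at 7.52, 20.8, 37.0, 65.3 and 114.5 CPM and Cdc25b at 4.29, 4.34, 8.85, 19.3 and 38.3 CPM. Cdc25b was as low at 25 to 50% as at 0 to 25%, whereas Plk1 and Cdkn3 were higher at 25 to 50%. Cdkn2b was at 17.5, 12.9, 21.2, 38.2 and 84.5 CPM, highest in the last bin. Wee1 kept within 33.8 to 42.6 CPM. The median depth was 30353 UMIs in the first bin and 37803.5 to 39888 UMIs in the others.

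**Figure D3:**
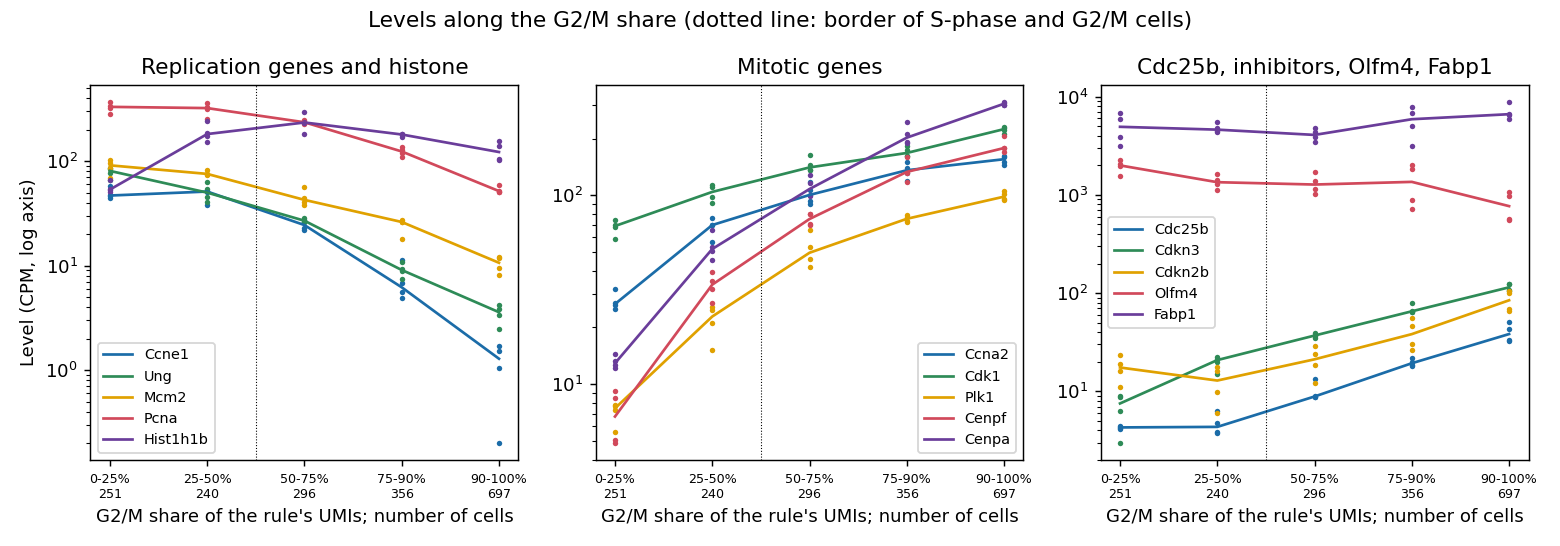
Lines show the median level of 4 libraries and points each library (y axis, CPM, log) in 5 bins of proliferating cells by the mitotic share of rule UMIs (x axis, with the number of cells), for replication genes and a histone (left), mitotic genes (middle) and Cdc25b, 2 inhibitors, Olfm4 and Fabp1 (right); the dotted line is the border between S-phase and G2/M cells. Ung and Ccne1 end at 3.58 and 1.29 CPM, Cenpa ends at 306 CPM, and Cdc25b and Cdkn2b are highest in the last bin.

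The members differed among themselves in Olfm4, a secreted glycoprotein of crypt base cells that is not used by the rule. Its level over a single cell had a median of 232, 32.4, 312 and 42.0 CPM in G2/M cells of libraries 1 to 4, against 539.8, 691, 924 and 604 CPM in S-phase cells. Among cells with Ptprc and no Epcam, 8 of 224 in library 1 (3.57%) and 72 of 597 in library 3 (12.1%) had an Olfm4 UMI. Their median depths were 3475 and 3509 UMIs. How far such stray transcripts add to the Olfm4 levels of G2/M cells was not tested. In 374 G2/M cells Olfm4 was at 1000 CPM or more (85, 119, 127 and 43 by library), in 253 it was between, and in 722 it was under 100 CPM (102, 356, 135 and 129). The limits and the genes set against them were chosen after values were seen, the ranges are not cell types, and 177 G2/M cells lay between 500 and 2000 CPM. The high range held 35.7%, 20.8%, 39.8% and 19.5% of G2/M cells, against 42.4%, 46.8%, 48.7% and 40% of S-phase cells. The low range held 42.9%, 62.3%, 42.3% and 58.4% of G2/M cells, against 25.9%, 29.2%, 24.0% and 25.9% of S-phase cells. In every library the low range was the larger one in G2/M cells and the high range in S-phase cells.

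Of 5656 genes other than Olfm4 with a mean of at least 20 CPM over the high and the low range, 126 (2.23%) were at least 2-fold higher in the high range in all 4 libraries and 226 (4%) at least 2-fold lower. The median log2 ratio over all of them was -0.06, -0.14, -0.09 and -0.05. Of the 21 measured genes of the stem cell and Wnt list 17 were past the fold in the higher direction and none in the lower, with list medians between 2.27 and 2.38 in the 4 libraries. Prom1, Ephb2, Tcf4 and Tcf7l2 were not past it, and Tcf7l2, a Wnt pathway transcription factor, was at 49.97, 50.6, 57.3 and 56.7 CPM in the high range, against 58.1, 57.05, 58.8 and 52.45 CPM in the low range. Lgr5 was at 43.3, 50.9, 57.6 and 45.5 CPM in the high range, against 0.219, 0.211, 0.147 and 0.187 CPM in the low range. Ascl2, a transcription factor of crypt base stem cells, was at 75.6, 81.1, 65.2 and 112 CPM in the high range, against 0, 0.634, 1.03 and 0.187 CPM in the low range. Axin2, a target and brake of Wnt signalling, was at 115, 112, 119 and 115 CPM in the high range, against 10.7, 13.4, 9.97 and 11.2 CPM in the low range. These 3 genes, past the fold in all 4 libraries, did not overlap between the ranges, which adds little to that call. Slc12a2, an ion cotransporter of the crypt base, was at 562, 459.8, 547 and 510.5 CPM in the high range, against 53.3, 33.6, 45.15 and 34.3 CPM in the low range. Ifitm3, a membrane protein also induced by interferon, was at 663, 547, 339.9 and 290.1 CPM in the high range, against 34.1, 24.3, 13.2 and 14.9 CPM in the low range. Npm1 and Ncl, proteins of the nucleolus, were at 1553 to 1597 and 678 to 834 CPM in the high range, against 717.5 to 843 and 349 to 401 CPM in the low range.

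Of the 31 measured enterocyte genes 14 were past the fold in the lower direction and 1, the keratin Krt18, in the higher, with list medians of -1.26, -1.12, -1.18 and -0.98. Hnf4a, a transcription factor of the intestinal epithelium, was past neither, at 185, 152, 188 and 174 CPM in the high range, against 202, 182, 197.5 and 175 CPM in the low range. Fabp1, the fatty acid binding protein of enterocytes, was at 1500, 2104, 2038 and 1943 CPM in the high range, against 8270, 8063, 8663 and 11020 CPM in the low range. Krt19, a keratin of the epithelium, was at 928, 996, 1109 and 1253 CPM in the high range, against 2444, 2728, 2774 and 2944 CPM in the low range. Cdkn2b was at 2.95, 7.27, 4.94 and 2.36 CPM in the high range, against 96.8, 112, 89.1 and 110.7 CPM in the low range. None of the 3 genes overlapped between the ranges, which again adds little to their being past the fold. Cdkn1a, the inhibitor p21, was at 23.9, 39.1, 34.1 and 40.2 CPM in the high range, against 90.3, 86.8, 105 and 117 CPM in the low range. The list of G1 and the cell cycle brakes, which does not hold Cdkn2b, had 19 measured genes. Cdkn1a was the single one of them past the fold in the lower direction, and Cdk6, a kinase of G1, and Myc were past it in the higher. Per cell, the Spearman correlation of Olfm4 with Fabp1 was -0.60, -0.49, -0.51 and -0.64 over 238, 571, 319 and 221 G2/M cells, which share a library and each cell's depth. S-phase cells differed by Olfm4 range in the same direction for Lgr5, Fabp1, Cdkn1a and Cdkn2b, so this was not particular to G2/M cells. In S-phase cells Fabp1 was at 2412, 2255, 3166 and 2832 CPM in the high range, against 5281, 6856, 7525 and 6610 CPM in the low range. Cdkn2b differed less there, at 6.72, 9.66, 4.61 and 4.67 CPM, against 20.2, 30.2, 13.0 and 28.7 CPM.

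Of 143 measured genes on the mitotic lists 4 were past the fold in the higher direction and none in the lower. Smaller differences leaned to the high range, where 92 of the 143 were higher and 13 lower in all 4 libraries, with list medians of 0.29, 0.21, 0.31 and 0.40. Of all 5656 measured genes 1687 were higher and 2428 lower in the high range in all 4 libraries. Cenpf was at 171, 185, 182 and 218 CPM in the high range, against 114, 129.8, 132 and 117 CPM in the low range. Top2a, a rule gene, was at 402, 378, 395 and 343 CPM in the high range, against 251.5, 263, 262.5 and 227 CPM in the low range. Ube2c, also a rule gene, was at 590, 567, 644 and 628 CPM in the high range, against 633, 633, 583 and 579.9 CPM in the low range, with neither range higher in all libraries. Plk1 was at 81.2, 79.9, 87.1 and 88.0 CPM in the high range, against 74.1, 80.4, 86.05 and 81.75 CPM in the low range. Cdk1, higher in the high range in all 4 libraries, was at 202, 198, 203 and 209 CPM in the high range, against 184, 185.5, 169 and 175 CPM in the low range. Of 37 measured replication genes outside the rule 4 were past the fold in the higher direction and 34 were higher in all 4 libraries, with list medians of 0.76, 0.66, 0.79 and 0.76. Pcna was at 133, 128, 121 and 131 CPM in the high range, against 97.9, 88.3, 90.45 and 83.2 CPM in the low range. The median mitotic share of rule UMIs was 82.4%, 84.1%, 86.1% and 85.3% in the high range, against 92.4%, 94.1%, 94.1% and 93.7% in the low range. The ranges thus also differ in their place along the rule. The median depth was 43073, 33798, 40441 and 33700 UMIs in the high range, against 44794, 37528.5, 45754 and 37747 UMIs in the low range.

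**Figure D4:**
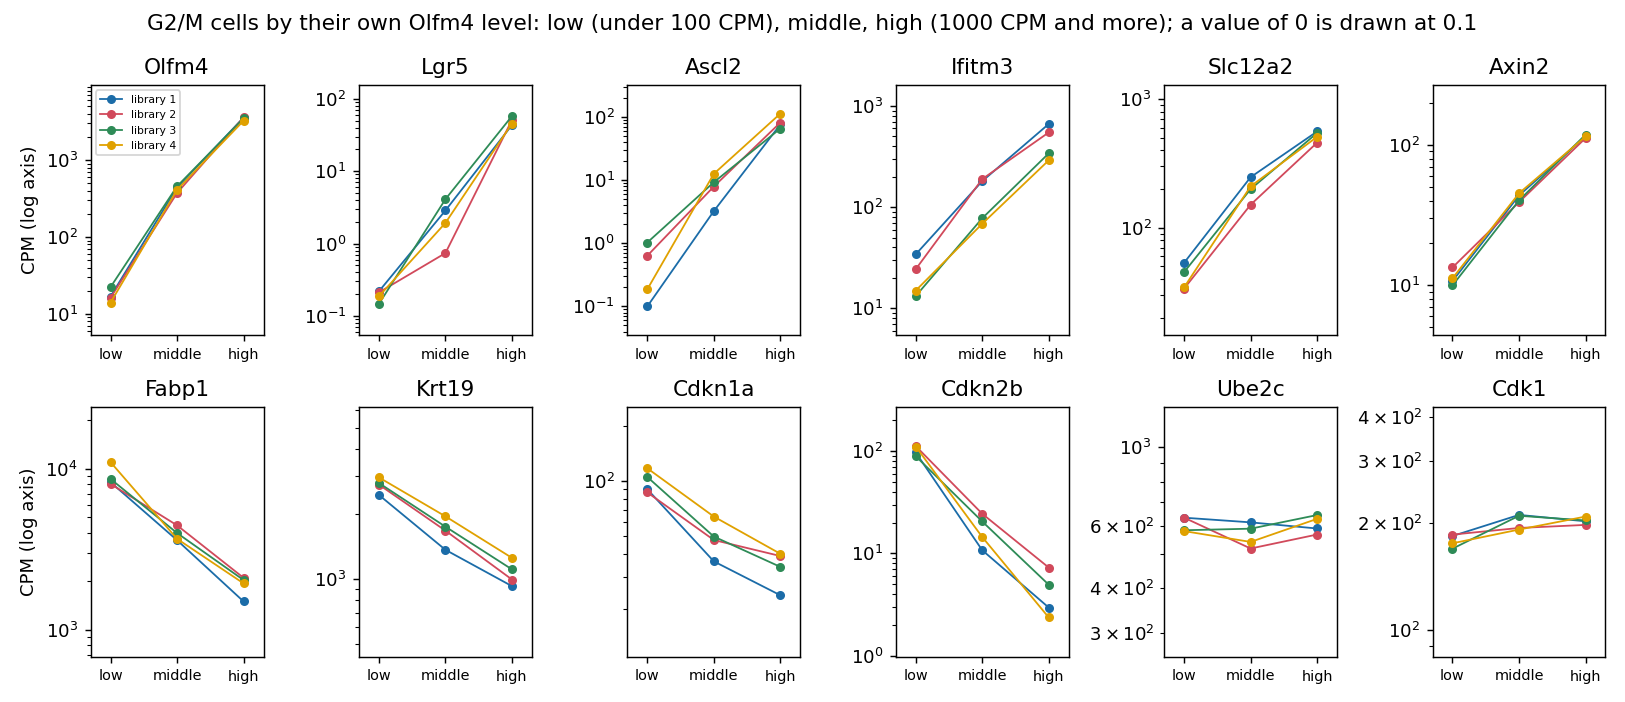
Each panel gives a gene's level (y axis, CPM, log) in G2/M cells of the low, middle and high Olfm4 range (x axis), with a line per library. Lgr5, Ascl2, Ifitm3, Slc12a2 and Axin2 climb and Fabp1, Krt19, Cdkn1a and Cdkn2b decline from low to high in all 4 libraries, while Ube2c and Cdk1 stay between 518 and 644 CPM and between 169 and 211 CPM; an Ascl2 value of 0 in library 1 is drawn at 0.1.

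Against S-phase cells the lists of stem cell and Wnt genes (21 measured), enterocyte genes (33), Notch and secretory genes (10), ribosome biogenesis (30) and respiration and glycolysis (27) had no gene past the fold in either direction. Of all 5652 genes 0.778% were higher and 0.708% lower, and lists this short would hold few or no calls at those shares. The stem cell list median log2 ratio was -0.11, -0.55, -0.19 and -0.52. Of its 21 genes 14 were below S-phase cells in all 4 libraries, a count that was not set against all genes. Olfm4 over the summed cells was at 1385, 777, 1435 and 705 CPM in G2/M cells, against 1686, 1677, 1795 and 1335 CPM in S-phase cells and 87.5, 106, 189 and 47.8 CPM in other epithelial cells. Atoh1, the factor of the secretory lineage, was at 11.02, 5.56, 7.205 and 2.41 CPM in G2/M cells, against 11.7, 8.30, 4.41 and 3.55 CPM in S-phase cells. Dll1, a Notch ligand of secretory precursors, was at 13.1, 8.16, 12.9 and 6.68 CPM in G2/M cells, against 10.9, 8.84, 6.46 and 10.3 CPM in S-phase cells. Both genes overlapped between the classes. The enterocyte list median against other epithelial cells was -3.15, -2.37, -2.64 and -2.62, and Fabp1 was at 4725, 6259, 5256 and 7664 CPM in G2/M cells, against 35650, 32560, 30000 and 38510 CPM in other epithelial cells.

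Most genes lay close together in the G2/M cells of the 4 libraries. Of 5654 genes with a mean of at least 20 CPM in G2/M cells, 80 (1.41%) were at least 2-fold higher in the highest than in the lowest library, and the median gene differed 1.168-fold. Of 143 such genes on the mitotic lists 1 was past that fold, a share near that of all genes, and their lists' median ranges were 1.14-fold to 1.25-fold. The gene was Tubb2b, a beta tubulin, at 35.0, 17.9, 49.5 and 21.4 CPM. The highest library was 1 for 16 of the 80 genes, 2 for 20, 3 for 39 and 4 for 5, and the lowest was library 4 for 48.

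Transcripts of MHC class II, which presents peptides to CD4 T cells, were low in library 4. Cd74, its invariant chain, was at 266, 335, 194 and 15.6 CPM in G2/M cells of libraries 1 to 4 (exact Poisson 95% interval for library 4, 13.1 to 18.3). H2-Ab1, a beta chain, was at 76.2, 82.3, 45.2 and 2.74 CPM, and H2-Aa, an alpha chain, at 41.6, 55.2, 27.8 and 1.10 CPM. Library 4 thus stood apart from the other 3. Cd74 was likewise at 356, 424.5, 213 and 22.7 CPM in S-phase cells and 272, 570.3, 360.2 and 18.1 CPM in other epithelial cells. Within G2/M cells Cd74 was at 435, 620.1, 196 and 63.8 CPM in the high Olfm4 range, against 113, 229.7, 159 and 3.17 CPM in the low range. Summed markers of myeloid cells came to 2.89, 1.54, 6.19 and 1.32 CPM in G2/M cells, and those of T cells to 1.49, 0.309, 7.08 and 0.658 CPM, with 6 of 7 T cell markers at 0 in library 4.

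Reg3b, a secreted antimicrobial lectin, was at 2612, 4929, 461 and 269 CPM in G2/M cells of libraries 1 to 4, and the related Reg3g at 1385, 2130, 311 and 260 CPM. Libraries 1 and 2 were thus high and libraries 3 and 4 low. In other epithelial cells Reg3b was at 11340, 24860, 1395 and 1911 CPM, several times the level in G2/M cells of the same library. In S-phase cells it was at 2222, 3617, 64.3 and 401.6 CPM, lowest in library 3. Ada, adenosine deaminase, was at 47.15, 17.8, 97.6 and 60.2 CPM in G2/M cells, and Mt2, a metallothionein, at 39.1, 15.35, 81.1 and 40.2 CPM. Both were lowest in library 2 and highest in library 3. Ada was higher in other epithelial cells, at 585.4, 96.65, 519.8 and 393.3 CPM, and also lowest there in library 2. How far stray transcripts add to Ada and Reg3b in G2/M cells was not tested. Ifitm3 was at 293.5, 155, 150.5 and 78.1 CPM and Ifi27, an interferon-induced gene, at 40.9, 14.9, 16.8 and 17.1 CPM, with library 1 highest for both. Slc12a2 was at 281, 137.5, 266 and 163 CPM and Hist1h2ap, an H2A histone, at 178, 76.15, 179 and 127 CPM. Olfm4 and Slc12a2 were higher in libraries 1 and 3. The high Olfm4 range also held more of the cells there, which for Olfm4 follows from how the range is drawn. A link with Slc12a2 was not tested.

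Part of the differences lay in droplets rich in transcripts of other cell types. In 21 G2/M cells alpha-defensins, the peptides of Paneth cells, were at least 1% of UMIs, and in 8 the hormone cell genes Chga, Chgb, Gip and Cck were at least 0.2%, which made 29 cells in all (6, 11, 9 and 3 by library). In library 3, 6122 of the 6377 UMIs of Gip in G2/M cells lay in 1 cell. Defa24, an alpha-defensin, was at 2522, 6768, 12180 and 1410 CPM in all G2/M cells and at 160, 164, 220.2 and 122 CPM without the 29 cells. Without them 58 of 5677 genes were past the fold between libraries, and 28 of the 80 genes no longer were, with 1 of 11 defensins left. Cd74 was then at 262, 332, 196 and 14.7 CPM and Reg3b at 2599, 5107, 468.5 and 273 CPM. Summed Paneth cell markers in all G2/M cells came to 4783, 13200, 24400 and 2380 CPM, and goblet cell markers to 2844, 1601, 2237 and 947 CPM. Immunoglobulin Igkc was at 95.3, 4.37, 53.7 and 4.05 CPM in G2/M cells, against 4510, 116, 3040 and 359 CPM in other epithelial cells, and its part in other differences was not tested. Of G2/M cells 7.56% had a doublet score in the top 6% of their library, against 8.76% of S-phase cells and 4.66% of other epithelial cells.

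**Figure D5:**
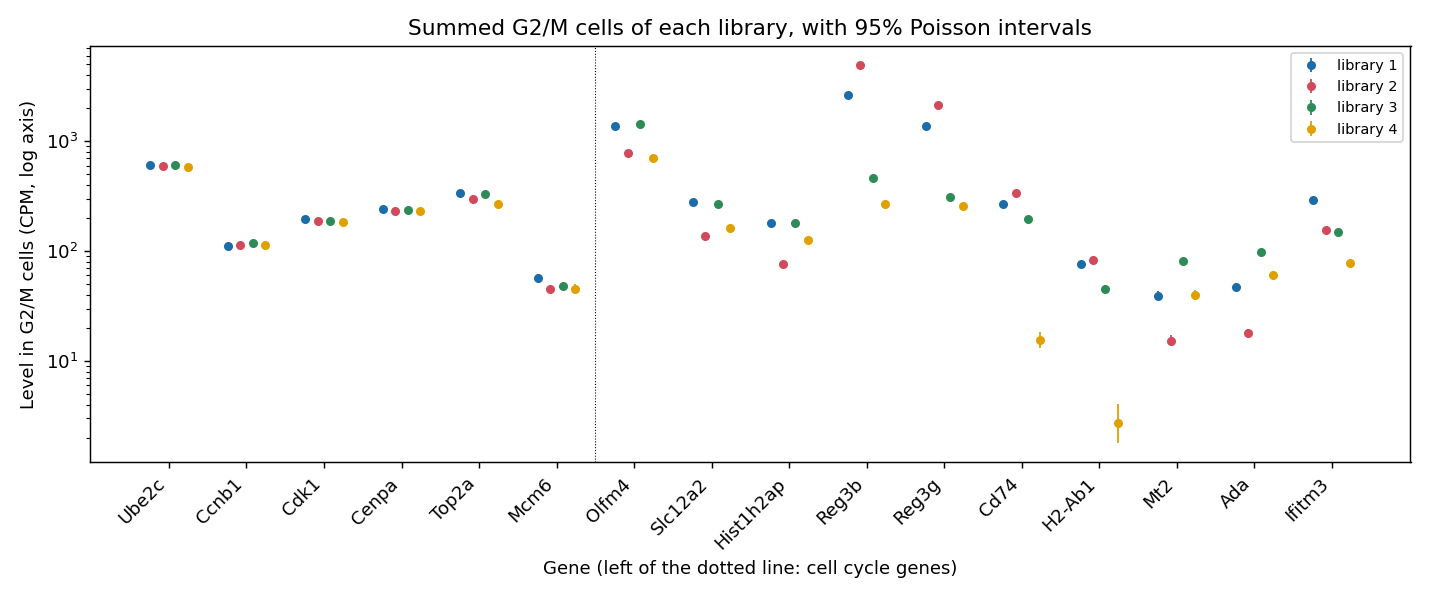
Points give the level of a gene in the summed G2/M cells of libraries 1 to 4 (y axis, CPM, log) with exact Poisson 95% intervals, cell cycle genes to the left of the dotted line and genes that differ between libraries to the right. The genes to the left, of which Ube2c, Ccnb1, Top2a and Mcm6 are rule genes, lie close together, with Cdk1 between 185 and 197 CPM, whereas Cd74 is at 15.6 CPM in library 4 and Reg3b runs between 269 and 4929 CPM.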

How the data were processed

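The authors deposited raw UMI counts in 1 matrix, whole numbers for each gene and droplet, with library numbers on the barcodes. Per the submitters' processing notes, Cell Ranger 6.1.1 and mm10 were used, and per the labels' protocols the cells were a live sort of the epithelial layer, run on 10x chips. The cell filter required 500 UMIs and 250 genes and allowed up to 25% of UMIs from mitochondrial genes. Doublets, scored with Scrublet in scanpy 1.11.5, stayed in. UMIs were summed per class and library and divided by their total (CPM). Log ratios used CPM + 1, and a gene was called where the ratio passed 2-fold in the same direction in all 4 libraries, at a mean of at least 20 CPM over both classes. Intervals are exact (Poisson for CPM, Clopper-Pearson for shares, 95%) and cover counting error only. The planned edgeR test of IPA against control was not run, because no label or file ties the library numbers to the samples. Computations used numpy 2.4.6, scipy 1.17.1, pandas 2.3.3 and matplotlib 3.10.9. Only the calling of genes past the fold was tested on simulated data, with Poisson counts.

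The members, the gene lists and the tests were chosen with earlier results of these data known. Of 621 listed genes 612 were found in the matrix. Genes are named by a rule: the rule genes and markers, up to 6 genes a list with the highest mean level in G2/M cells, 8 genes of interest, the 15 called genes furthest above and the 15 furthest below S-phase cells, and per library the 5 genes furthest above and the 5 furthest below the nearest other library. Other genes were named after their values were seen; they include those given with the gene lists' calls. Promoters were matched by symbol to RefSeq, 1 entry a gene. Alternatives were other limits of the cell filter and of the rule, thinned counts, equal weights of cells, other level filters and added constants, removal of likely doublets and each library left out in turn. After the data were seen, 3 more were added: equal sums left out, cells rich in Paneth or hormone cell transcripts left out, and members with 5 or 6 proliferation UMIs left out.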

Additional observations from a re-analysis of the deposited data

How the results depend on the processing

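No paired analysis was possible because the library numbers could not be tied to samples or diets, and for the same reason the planned edgeR, DESeq2, replicate block and left-out replicate fits of IPA against control were not run. Of 101 recomputed values of the shares, ratios, counts of called genes and list medians, 75 stayed the same and 26 moved. Shares and ratios were the same within counting error, and counts within 1.5 times. List medians were the same within their spread over libraries. Only a list median could reverse in sign, and none did. The share of G2/M cells in libraries 1 to 4 was 5.268%, 9.445%, 9.267% and 4.338% with at most 15% mitochondrial UMIs, 5.23%, 10.12%, 8.624% and 4.62% with at least 3 proliferation UMIs, 3.666%, 6.505%, 6.079% and 2.805% with at least 10, and 3.815%, 7.554%, 6.48% and 3.141% where the mitotic sum had to be at least 2 times the replication sum. Thinned to 10000 UMIs it was 6.525%, 6.607% and 2.64% in libraries 2 to 4, with the order of libraries 2 and 3 turned round; the cause was not tested. The number of G2/M cells per S-phase cell moved under none of its alternatives. With a level filter of 5 CPM 75 genes were called higher and 63 lower, and with 50 CPM 18 and 15, since fewer genes passed the filter. Leaving out each library in turn gave 45 to 47 higher and 40 to 55 lower genes, and with equal weights of cells 39 and 50 were called, 36 and 40 of them shared. The spindle list median log2 ratio, 1.03 as the median of the 4 libraries, was 0.93 with 5 CPM added, 1.07 without likely doublets and 0.98 without cells rich in Paneth or hormone transcripts. Of 170 recomputed log2 ratios of single genes 145 stayed within their spread over libraries, 25 moved and none reversed. Most of these genes were picked for their large ratios, so a reversal was unlikely from the start. Depth limits genes under about 1 CPM, such as Cyp1a1.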

Other observations

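Of 17 measured genes of xenobiotic sensing none was past 2-fold between G2/M and S-phase cells in all 4 libraries. Merely above S-phase cells in all 4 were 7, a count that was not set against all genes. At the shares of all genes, 0.778% higher and 0.708% lower, so short a list would hold few or no calls. Against other epithelial cells the list median log2 ratio was -2.21, -1.55, -1.99 and -1.78, and 1 of 16 genes was past 2-fold between the libraries in G2/M cells. Of all 5654 genes 1.41% were, and 1 gene is too few to set against that share. Ahr, the aryl hydrocarbon receptor, was at 14, 12.4, 9.73 and 11.9 CPM in G2/M cells of libraries 1 to 4, against 12.3, 9.93, 12.49 and 9.22 CPM in S-phase cells. Nr1i2, the pregnane X receptor, was at 26.7, 25.6, 30.65 and 27.5 CPM in G2/M cells, against 24.3, 22.6, 24.4 and 19.9 CPM in S-phase cells and 54.6, 44.1, 55.8 and 50.1 CPM in other epithelial cells. Cyp1a1, the enzyme that Ahr induces, had 6 and 18 UMIs in G2/M cells of libraries 1 and 2 and none in libraries 3 and 4, where 0 of 319 and 0 of 221 cells held it (upper exact 95% limits of 1.15% and 1.66%). In other epithelial cells Cyp1a1 was at 9.19, 6.39, 0.0908 and 0.241 CPM, and 426 of 5050, 347 of 5930, 1 of 3775 and 8 of 5647 cells held it, against 0 of 224 and 0 of 597 cells with Ptprc and no Epcam in libraries 1 and 3. The library numbers were not read as diets from these values.

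Genes of ribosome biogenesis had a median log2 ratio of -0.10, -0.22, -0.31 and -0.26 to S-phase cells, and of 3.07, 2.39, 2.43 and 2.81 to other epithelial cells. Of the 30 genes 18 were below S-phase cells in all 4 libraries, a count that was not set against all genes. Genes of respiration and glycolysis had 0.08, 0.18, 0.03 and 0.16 to S-phase cells and -0.27, -0.26, -0.23 and -0.12 to other epithelial cells. Klf5, a transcription factor of dividing epithelium, was at 499.6, 549, 531 and 561 CPM in G2/M cells, against 388, 379, 420.3 and 389 CPM in S-phase cells and 279, 323, 327.5 and 255 CPM in other epithelial cells.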
